A study of Mus musculus with 6 samples.

Results

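The MS4A genes encode small membrane proteins that cross the membrane in a tetraspan arrangement, and in the mouse they lie side by side on chromosome 19. Described here are 9 of them, Ms4a4a, Ms4a4b, Ms4a4c, Ms4a4d, Ms4a6b, Ms4a6c, Ms4a6d, Ms4a7 and Ms4a8a, of 26100 rows in the count table. The group was chosen by family name, around Ms4a4a, which was selected on its lower level in the knockout lungs. The difference of Ms4a4a between genotypes is therefore a description with no test. All 9 passed the filter on low counts, as did 16633 rows in all. A further 10 rows carry an Ms4a symbol and are described at the end.

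RNA was sequenced from whole lung of 3 wild-type (WT) mice and 3 mice with a knockout of Clec7a (KO). All 6 mice had received bleomycin, an agent that injures the lung and leads to fibrosis, into the trachea, and lungs were taken on day 14. No lung without bleomycin was analysed here, so every comparison is between injured lungs. The sources used here do not give the strain, age or sex of the mice or the way the knockout was made.

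Several MS4A proteins sit in the membrane of myeloid cells beside receptors and modify their signalling. MS4A4A is a protein of tissue macrophages that associates with dectin-1, the beta-glucan receptor encoded by Clec7a, in lipid rafts. MS4A genes are also known for a genetic link to the level of soluble TREM2, a lipid receptor of macrophages and microglia. Not every member is a myeloid gene, since Ms4a4b is known from T cells and NK cells and Ms4a1 encodes the B cell antigen CD20.

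The promoter sequences are shown for the genes whose levels the results below turn on, so that the closest copies can be compared letter by letter. They are from RefSeq (GRCm38.p6), on the plus strand, 5′ to 3′, and lie upstream of the RefSeq start of each gene, which for Ms4a4c and Ms4a6b falls inside the longer GENCODE gene. Of the bases printed, only the last 5 of Ms4a4b lie in an annotated exon. Capitals mark GAGGAA, the core of PU.1 sites, or GAAANNGAA, the core of the interferon-stimulated response element (ISRE), on either strand.
Ms4a4a, chr19:11375338-11375487: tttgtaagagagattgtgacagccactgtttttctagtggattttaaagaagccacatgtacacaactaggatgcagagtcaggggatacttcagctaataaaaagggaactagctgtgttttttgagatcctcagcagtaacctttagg
Ms4a4b, chr19:11443408-11443557: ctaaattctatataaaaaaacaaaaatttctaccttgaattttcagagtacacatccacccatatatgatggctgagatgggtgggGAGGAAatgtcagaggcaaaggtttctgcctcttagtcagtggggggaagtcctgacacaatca
Ms4a4c, chr19:11407511-11407660: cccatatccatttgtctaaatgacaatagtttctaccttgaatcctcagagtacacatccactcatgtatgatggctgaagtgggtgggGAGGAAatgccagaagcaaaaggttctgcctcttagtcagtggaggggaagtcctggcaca
Ms4a6b, chr19:11518323-11518391: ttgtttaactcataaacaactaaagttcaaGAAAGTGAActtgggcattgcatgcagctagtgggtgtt
Ms4a6c, chr19:11469205-11469273: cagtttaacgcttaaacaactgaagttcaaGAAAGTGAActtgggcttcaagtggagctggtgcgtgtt

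Ms4a4b and Ms4a4c have the same GAGGAA match in a shared stretch, with its first base 64 and 61 bases before the start. Their promoter windows of 250 bases had 184 of 221 aligned bases in common (83.3%). Ms4a6b and Ms4a6c share GAAAGTGAA, 206 and 133 bases before their starts, with 152 of 170 aligned bases identical (89.4%). Of the 250 bases of the Ms4a6b window, 106 lie in annotated exons of that gene, so part of this likeness may be of transcribed sequence. Ms4a4a and Ms4a8a had no match to these motifs, nor to TGTGGT, the core of RUNX sites, or TTGCNNAA, the C/EBP motif. All 4 were searched on both strands, and matches of different motifs were allowed to overlap. Of all 32817 promoter windows of that length, 23.3% held GAGGAA, 14% TGTGGT, 9.57% TTGCNNAA and 7.12% GAAANNGAA. Ms4a7 had a GAAANNGAA match before each of its starts, Ms4a4d had TTGCNNAA and Ms4a4c also had TGTGGT. These are matches of letters in a window and not binding sites. Ms4a6d had no entry in the promoter table and was not searched.

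The coding sequences are close enough for reads to be assigned to the wrong gene in some places. Ms4a4b and Ms4a4c were 91.8% identical over their aligned coding bases, Ms4a4c and Ms4a4d 87.9%, and Ms4a6b and Ms4a6c 85.3%. Ms4a4a was further from the others of its name, at 67.1% to 68.3%. Stretches of 100 bases that also occur in another gene made up 1.66% of the Ms4a4c exons, 0.473% of those of Ms4a4b and 0.513% of those of Ms4a6c. The shared stretches of Ms4a4c were with Ms4a4b, and those of Ms4a4b with Ms4a4c and Ms4a2. Those of Ms4a6c were with Prdm11 and not with an Ms4a gene, and Ms4a6b shared none. None of the 737 such stretches of Ms4a4a was shared. The sources used here do not say how reads matching several genes were counted, so the split between Ms4a4b and Ms4a4c is the least certain.

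The libraries held 31052936 to 34451956 counts. The replicate 1 libraries of both genotypes stood apart, with rank correlations to other libraries of 0.924 to 0.947, against 0.959 to 0.992 among the other 4. KO replicate 1 also had 7.34% of its counts in mitochondrial genes, against 2.69% to 3.87% elsewhere. Clec7a was at 113.7 ± 72.7 CPM (counts scaled to library size) in WT and 4.43 ± 2.13 CPM in KO (mean ± SD, n = 3), lower in each KO library than in any WT library. Markers of macrophages were abundant in every library, and none of the 15 genes of a general macrophage and monocyte list was at 0. The lungs are a mixture of cells, and fewer cells of a type cannot be told apart from less RNA per cell.

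Ms4a4a (ENSMUSG00000101389), the gene the group was chosen by, was expressed at 51.2, 44.0 and 31.7 CPM in WT replicates 1, 2 and 3 and at 7.11, 10.6 and 5.77 CPM in KO replicates 1, 2 and 3. The 3 KO lungs lay below all 3 WT lungs with a wide gap. The mean was 42.3 ± 9.84 CPM in WT lungs against 7.81 ± 2.48 in KO lungs (SD, n = 3), which is 5.42-fold lower in KO. On the log2 scale the estimated difference, KO minus WT, was -2.44 ± 0.31 (SE). Over 19 alternative ways of processing the data, including each library left out in turn, it stayed between -2.71 and -2.21.

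**Figure D1:**
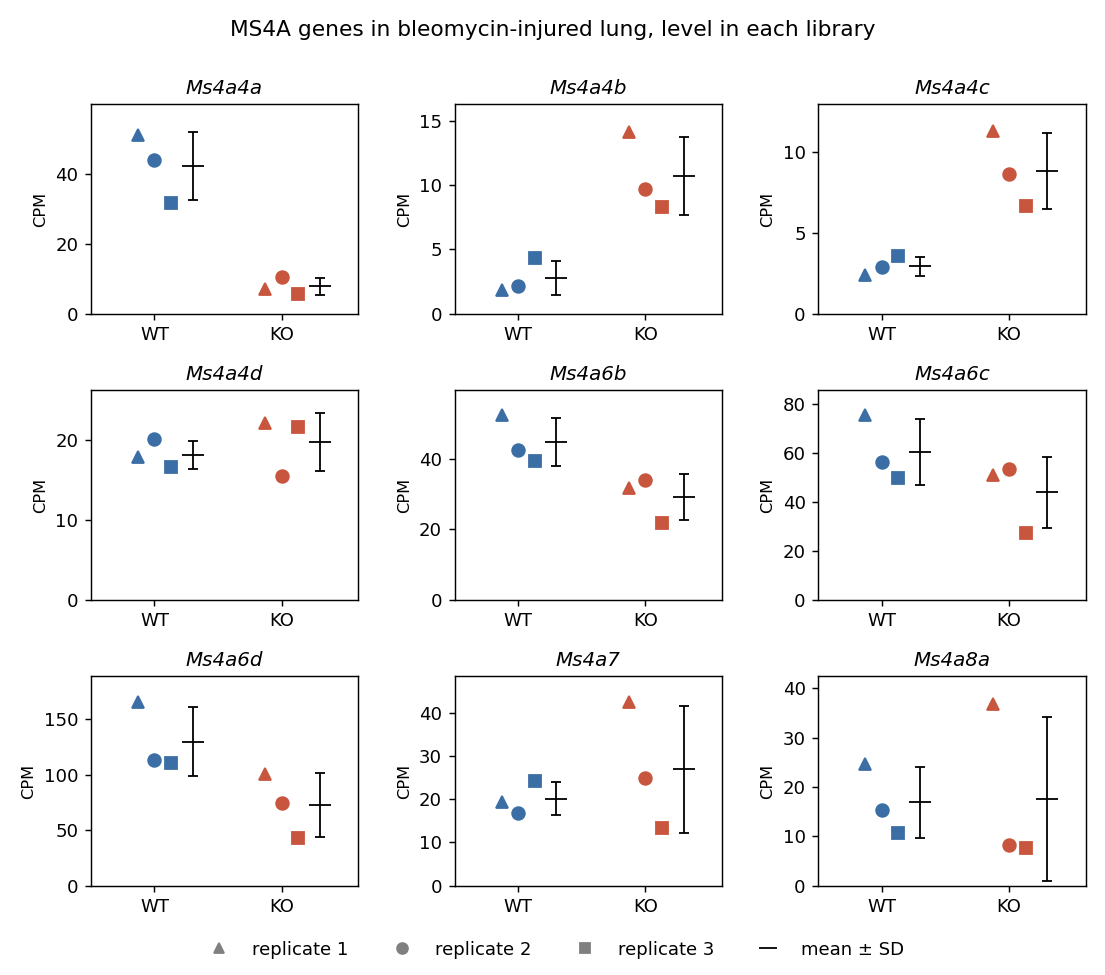
CPM of the 9 genes in each library, with 1 panel per gene, WT and KO on the horizontal axis, points for single libraries and a bar for the mean ± SD of 3 libraries. Ms4a4a is separated downward (31.7 to 51.2 in WT, 5.77 to 10.6 in KO), Ms4a4b and Ms4a4c are separated upward, and KO replicate 1 is the highest point of Ms4a7 and Ms4a8a.

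Ms4a4b and Ms4a4c, the neighbours that follow Ms4a4a on the chromosome, had the opposite direction. Ms4a4b was at 1.84, 2.15 and 4.32 CPM in the WT libraries and at 14.1, 9.67 and 8.33 CPM in the KO libraries. Every KO lung had more than the highest WT lung. The mean was 2.77 ± 1.35 CPM in WT lungs against 10.7 ± 3.05 in KO lungs (SD, n = 3), 3.87-fold higher in KO, with a log2 difference of 1.95 ± 0.43 (SE). Its adjusted p was 0.234 in the edgeR quasi-likelihood test and 0.0012 in DESeq2, both over all genes tested. The gap between the 2 tests is large, and by the edgeR threshold of 0.05 the gene was not called.

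Ms4a4c was at 2.36, 2.86 and 3.56 CPM in WT and at 11.3, 8.60 and 6.63 CPM in KO, again without overlap. Its mean was 2.93 ± 0.601 CPM in WT lungs against 8.85 ± 2.35 in KO lungs (SD, n = 3), 3.02-fold higher in KO, with a log2 difference of 1.59 ± 0.32 (SE). The adjusted p was 0.221 with edgeR and 7.87e-04 with DESeq2. These 2 genes ran nearly in parallel over the 6 libraries, with a Pearson r of 0.984 on log2 CPM, the highest of the 36 pairs of members. They also share sequence and the genotype difference, so this value describes the libraries only.

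The 3 Ms4a6 genes had lower means in KO, by less than Ms4a4a. Ms4a6d, the most abundant member, was at 165.5, 113.3 and 110.6 CPM in WT and at 100.7, 74.3 and 43.3 CPM in KO. The groups did not overlap, although the highest KO lung came close to the lowest WT lung. The means of 129.8 ± 30.95 CPM in WT lungs against 72.7 ± 28.7 in KO lungs (SD, n = 3) gave a 1.78-fold lower level and a log2 difference of -0.84 ± 0.34 (SE). Its adjusted p was 0.419 with edgeR and 0.306 with DESeq2.

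Ms4a6b was at 52.5, 42.6 and 39.3 CPM in WT and at 31.7, 33.9 and 21.6 CPM in KO, also without overlap. Its log2 difference was -0.62 ± 0.23 (SE), with an edgeR adjusted p of 0.380. Ms4a6c, known from monocytes, was at 75.3, 56.1 and 49.5 CPM in WT and at 51.1, 53.2 and 27.1 CPM in KO, and here the groups overlapped. Its log2 difference of -0.46 ± 0.31 (SE, edgeR adjusted p = 0.609) was -0.21 without KO replicate 3, which had the least of all 3 Ms4a6 genes. The 3 genes varied together from library to library, with Pearson r between 0.933 and 0.955 over 6 libraries. Ms4a4a was nearest to Ms4a6b (r = 0.908) and farthest from Ms4a4b (r = -0.936), values that carry the genotype difference of each gene.

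The other 3 members gave no separation of the genotypes. Ms4a7, a gene of macrophages, was at 19.4, 16.7 and 24.3 CPM in WT and at 42.5, 25.0 and 13.3 CPM in KO, so the KO lungs included both the highest and the lowest value. Its log2 difference of 0.42 ± 0.42 (SE, edgeR adjusted p = 0.744) was -0.07 without KO replicate 1. Ms4a8a, described in alternatively activated macrophages, was at 24.7, 15.3 and 10.6 CPM in WT and at 36.7, 8.30 and 7.55 CPM in KO. The replicate 1 library was the highest of each genotype, and the log2 difference of 0.05 ± 0.68 (SE, edgeR adjusted p = 0.983) turned to -1.09 without KO replicate 1. Ms4a4d was at 17.8, 20.1 and 16.6 CPM in WT and at 22.1, 15.5 and 21.6 CPM in KO, with a log2 difference of 0.12 ± 0.21 (SE, edgeR adjusted p = 0.867). It varied least of the 9 genes, with all 6 libraries between 15.5 and 22.1 CPM.

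**Figure D2:**
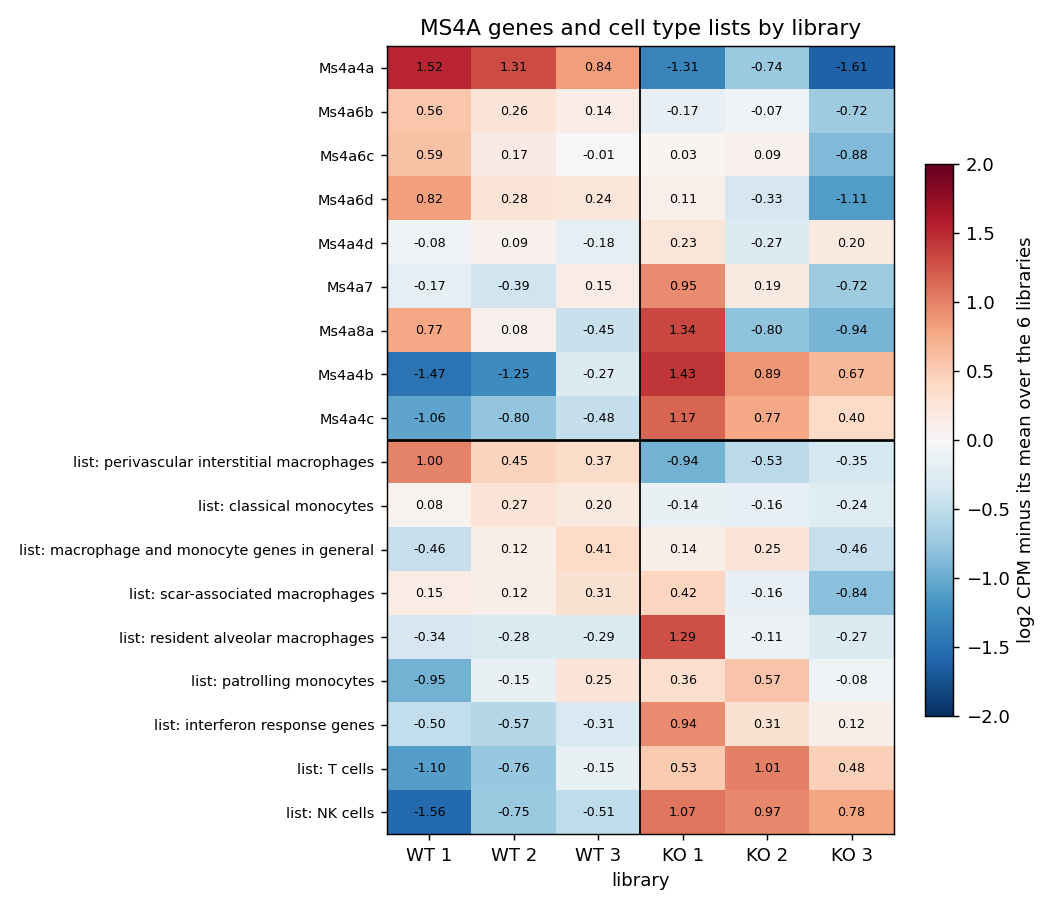
Log2 CPM of each member minus its mean over the 6 libraries, with genes in rows, libraries in columns and color for the value. Ms4a4b and Ms4a4c are above their means in all KO libraries, Ms4a4a is below its mean in all of them, and KO replicate 3 is the lowest library for the 3 Ms4a6 genes and Ms4a7.

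Of the 9 genes, 5 had a higher and 4 a lower estimate in KO, and their median log2 difference was 0.05, against -0.01 over the 16633 genes tested. Without Ms4a4a the median of the other 8 was 0.09. The edgeR test called none of the 9 at an adjusted p of 0.05, and it called 0% of all genes. At an unadjusted edgeR p under 0.05 there were 2 higher members, against 5.95% of all genes, and 3 lower members including Ms4a4a, against 5.89%. DESeq2 called 2 members higher (1.91% of all genes), and of the lower members only Ms4a4a, which chose the group, was past its threshold (1.73%). On the CPM scale the groups did not overlap for 2 members that were higher in KO (9.81% of all genes) and 3 that were lower, again with Ms4a4a (11.3%). The counts that hold Ms4a4a were fixed in part by the choice of the group.

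**Figure D3:**
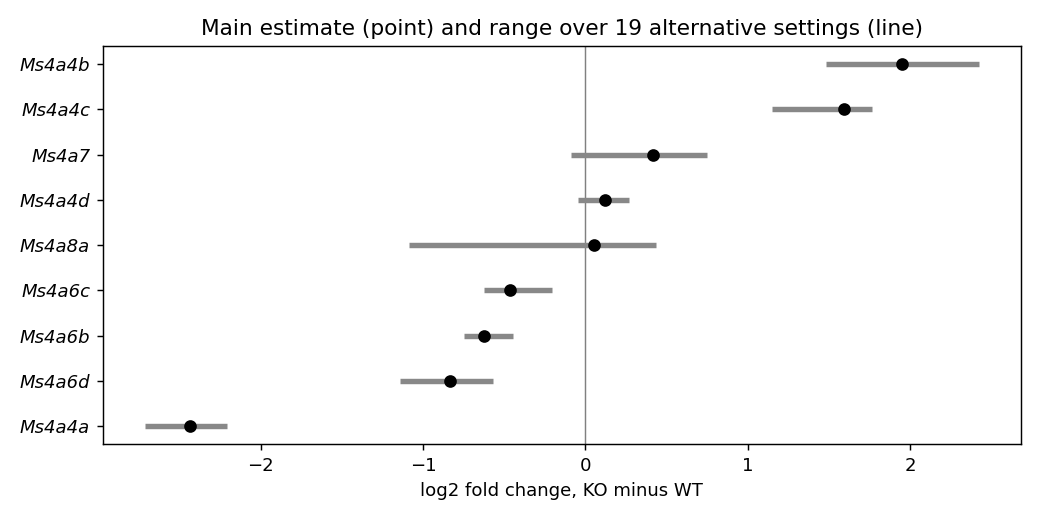
Log2 fold change, KO minus WT, of each member (horizontal axis), with a point for the edgeR estimate and a line for the range over 19 alternative settings. The lines of Ms4a4a (-2.71 to -2.21), the 3 Ms4a6 genes, Ms4a4b (1.48 to 2.42) and Ms4a4c (1.15 to 1.77) stay on 1 side of 0, and those of Ms4a7, Ms4a4d and Ms4a8a cross it.

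Neighbouring members of the cluster differed in the sign of their estimates. The 19 Ms4a genes span 678.6 kb of chromosome 19 (GRCm38, positions 10962293 to 11640851). Ms4a4a lies at 11375523 to 11392790 on the plus strand, and Ms4a7 (log2 difference 0.42) starts 39.4 kb before it. Ms4a4c (11404770 to 11427246, plus strand) starts 29.2 kb and Ms4a4b (11443553 to 11467055, plus strand) 68.0 kb after the start of Ms4a4a, and both had higher estimates in KO. Ms4a6c and Ms4a6b follow at 93.8 and 141.0 kb with lower estimates, Ms4a4d at 161.3 kb with 0.12, and Ms4a6d (11586604 to 11604849, minus strand) at 229.3 kb with -0.84. The sign of the estimate thus changed 5 times along the 8 members from Ms4a7 to Ms4a6d. The estimates of Ms4a7 (SE 0.42) and Ms4a4d (SE 0.21) were close to 0 for their SE and changed sign in some settings. The changes of sign beside these genes are therefore not resolved, and Ms4a4a was chosen for its difference.

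**Figure D4:**
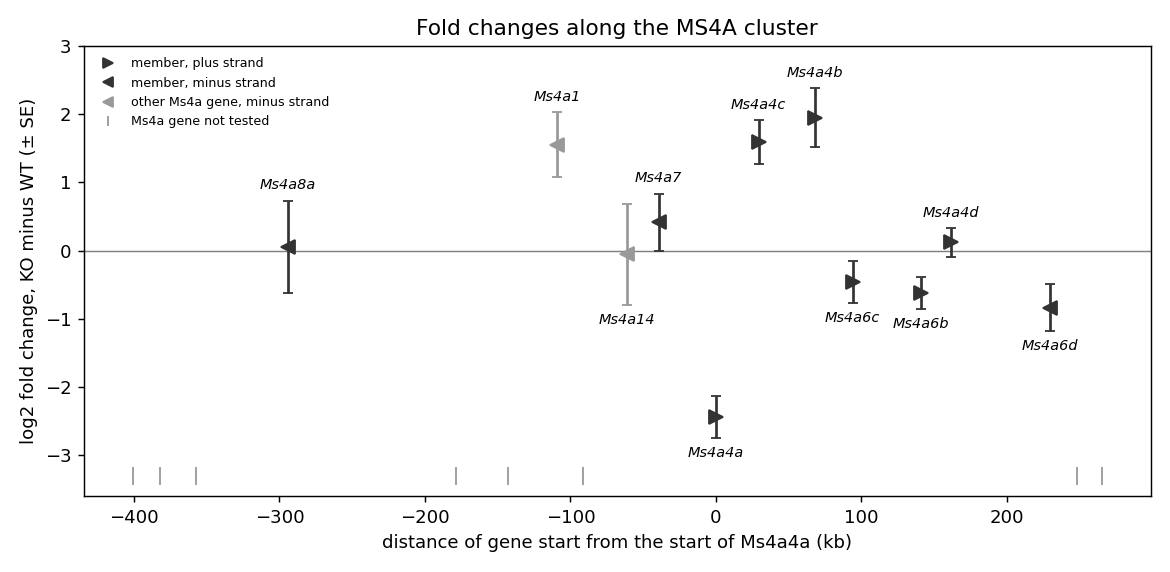
Log2 fold change, KO minus WT (vertical axis, ± SE), of the tested Ms4a genes against the distance of each gene start from that of Ms4a4a in kb. Ticks at the bottom mark Ms4a genes that were not tested. Ms4a4a at -2.44 stands between Ms4a7 at 0.42 and Ms4a4c at 1.59, which start 39.4 kb before and 29.2 kb after it.

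Which members made up most of the family was read per gene length. Levels of different genes are compared on the deposited FPKM scale, where the fragments of a gene are divided by its length and by the depth of the library. In WT lungs the order was Ms4a6d (85.6 ± 16.5 FPKM, SD, n = 3), Ms4a4a (47.3 ± 9.47), Ms4a6c (30.6 ± 5.44), Ms4a7 (16.2 ± 3.47), Ms4a8a (14.5 ± 5.56), Ms4a6b (14.5 ± 2.46), Ms4a4d (11.3 ± 1.22), Ms4a4b (2.10 ± 1.080) and Ms4a4c (1.70 ± 0.329). The ranges of neighbours in that order overlapped from Ms4a7 to Ms4a4d and for Ms4a4b and Ms4a4c, while the top 3 were each separate.

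In KO lungs Ms4a6d was again the highest, at 50.2 ± 19.03 FPKM (SD, n = 3). Ms4a6c (23.3 ± 7.69), Ms4a7 (22.1 ± 11.4), Ms4a8a (15.7 ± 14.6), Ms4a4d (12.8 ± 2.21), Ms4a6b (10.3 ± 2.25), Ms4a4a (9.18 ± 3.03) and Ms4a4b (8.41 ± 2.23) followed, and each of them overlapped its neighbour in range. Ms4a4c was last at 5.05 ± 1.296 FPKM. By mean FPKM, Ms4a4a thus went from the second place in WT to the seventh in KO. In KO its range overlapped those of its neighbours in the order, so that place is not resolved.

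As a share of the summed FPKM of the 9 genes, Ms4a4a made up 21.1% ± 2.33 (SD, n = 3) in WT and 6.18% ± 2.12 in KO. Ms4a6d was at 38.1% ± 2.33 in WT and 31.7% ± 1.80 in KO. Ms4a4b was at 0.994% ± 0.631 in WT and 5.51% ± 0.845 in KO, and Ms4a4c at 0.786% ± 0.257 in WT and 3.30% ± 0.382 in KO. Ms4a7 took 7.44% ± 2.47 in WT and 13.5% ± 2.55 in KO, while Ms4a6b took 6.48% ± 0.857 and 6.84% ± 1.33. The shares are bound together, since a lower share of Ms4a4a, which was chosen for its difference, raises those of other members. The FPKM of Ms4a7 itself overlapped, at 13.4 to 20.1 in WT and 11.05 to 33.8 in KO. The sum of the 9 genes was 195.4 to 260.6 FPKM in WT and 101.7 to 211.7 FPKM in KO, so the 2 ranges overlapped.

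**Figure D5:**
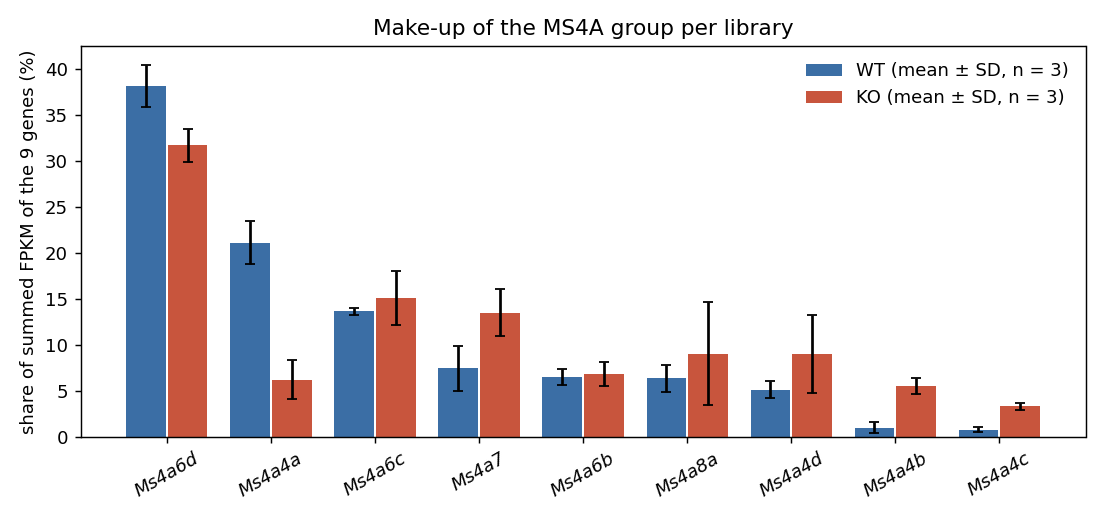
Share of each gene in the summed FPKM of the 9 genes, in percent, as the mean ± SD of 3 libraries per genotype. The WT bar of Ms4a4a reaches 21.1% and the KO bar 6.18%, while the bars of Ms4a4b and Ms4a4c are taller in KO.

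Members were also read relative to general macrophage and monocyte genes (the mean log2 CPM of the 15 genes, subtracted in each library). That list's own mean was 6.84 ± 0.44 in WT and 6.79 ± 0.38 in KO (log2 CPM, SD, n = 3), with overlap. On this scale Ms4a4a was at -0.68, -1.48 and -2.23 in the WT libraries and at -4.11, -3.66 and -3.81 in the KO libraries, a difference of -2.40 with no overlap. Without the subtraction the difference was -2.45. Ms4a4b differed by 2.04 and Ms4a4c by 1.61, both without overlap. The Ms4a6 genes did overlap on this scale, with differences of -0.59 for Ms4a6b, -0.45 for Ms4a6c and -0.84 for Ms4a6d, which were -0.23, -0.04 and -0.42 without WT replicate 1. Of the 15 genes of the list, 5 had higher and 10 lower estimates. DESeq2 called 2 of them lower (1.73% of all genes) and 0 higher (1.91%). Itgam, an integrin chain of myeloid cells, differed by -1.70. Lyz2, a lysozyme, differed by 1.35 with overlapping groups, and its highest library was KO replicate 1.

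Lists of cell type markers were measured beside the members, and their part in the members' values was not tested. They are given as counts with medians, and no list had a gene called by edgeR at an adjusted p of 0.05. Over all genes, 8148 of the 16633 tested had higher estimates, and DESeq2 called 1.91% higher and 1.73% lower. The lists were not tested against these shares. Of 16 genes of perivascular interstitial macrophages, a macrophage type of the lung interstitium, 15 had lower estimates in KO, with a median log2 difference of -0.74, and DESeq2 called 6 of them lower. The genes of lowest edgeR p were F13a1, the coagulation factor XIII A chain, which differed by -2.58, and Vsig4, a complement receptor, by -4.48. The most abundant genes of the list, Igfbp4 and Cbr2, differed by -0.05 and 0.54, both with overlapping groups. The summed level of that list was 2294 to 3169 CPM in WT and 1629 to 2008 CPM in KO, and none of its genes was at 0 in any library.

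Of 14 tested genes of resident alveolar macrophages, 10 had higher estimates, with a median of 1.07, and DESeq2 called 4 higher. Their mean log2 CPM, centred over the 6 libraries, was 1.29 in KO replicate 1, the library with the most Ms4a7 and Ms4a8a. It was -0.11 and -0.27 in KO replicates 2 and 3, against -0.34 to -0.28 in WT. The summed level of the list was 1544 to 2355 CPM in the WT libraries and 2734, 1189 and 970 CPM in KO replicates 1, 2 and 3. By this sum KO replicates 2 and 3 lay below every WT library, but by the centred mean they lay above. The sum is weighted toward abundant genes. Chil3, the most abundant of the list, was at 1368, 1790 and 1027 CPM in WT and at 1140, 392 and 325 CPM in KO replicates 1, 2 and 3. Of the 14 scar-associated macrophage genes, 8 had higher and 6 lower estimates (median 0.06), and DESeq2 called 1 higher and 1 lower. The summed level of that list was 10786 to 12883 CPM in WT and 3700 to 8838 CPM in KO, without overlap. Spp1, its most abundant gene, was at 5927 CPM in WT lungs against 2284 in KO lungs. The centred mean of the list overlapped. Of the 11 tested genes of classical monocytes, 4 had higher and 7 lower estimates (median -0.44), and DESeq2 called 0. Their centred mean was 0.08 to 0.27 in WT and -0.24 to -0.14 in KO, without overlap, while their summed levels overlapped. Of 12 genes of patrolling monocytes 9 had higher estimates (median 0.53), and DESeq2 called 2 higher and 1 lower. Of 14 dendritic cell genes 12 had higher estimates (median 1.23), and DESeq2 called 6 higher. The centred mean of the dendritic cell list was 0.18 to 0.98 in KO and -0.93 to -0.14 in WT, without overlap.

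The lymphocyte lists also had higher estimates in KO, the direction of Ms4a4b and Ms4a4c. All 15 T cell genes found had higher estimates (median 1.43), and DESeq2 called 10, where it called 1.91% of all genes higher. All 12 NK cell genes had higher estimates (median 1.67), and DESeq2 called 6. Summed levels were 51.9 to 108.4 CPM in WT and 131.2 to 188.3 CPM in KO for T cells, and 14.3 to 29.9 and 60.8 to 71.5 CPM for NK cells. Ncr1 and Klre1, both NK cell receptors, were at 0 in at least 1 library, and no T cell gene was. Cd3g, a chain of the T cell receptor complex, was at 1.73 ± 0.421 CPM in WT lungs against 6.95 ± 2.01 in KO lungs (SD, n = 3).

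Of 12 B cell genes, 11 had higher estimates (median 1.15), and DESeq2 called 5 higher. Of 20 interferon response genes, 19 had higher estimates (median 0.81), and DESeq2 called 3 higher. The alveolar type 1 cell list had 9 of 10 higher (median 0.32) and the mast cell and basophil list 5 of the 6 tested (median 0.42), with 1 and 0 called higher by DESeq2.

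The receptor pathways around the family were read from lists as well. Of 20 genes of dectin-1 signalling, 9 had higher and 11 lower estimates, with a median of -0.07, and DESeq2 called Clec7a alone. Syk, the kinase that dectin-1 engages, differed by 0.30 and Card9, the adaptor after it, by -0.16. Of 14 genes around TREM2, 4 had higher and 10 lower estimates (median -0.22), with Trem2 itself at -0.75 (edgeR adjusted p = 0.498) and overlapping groups. Cd33, a sialic acid receptor, differed by -0.88 and was the gene DESeq2 called in that list.

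Genes whose log2 CPM followed a member most closely over the 6 libraries were named from 14605 tested genes, as a description that carries depth and genotype alike. For Ms4a4a they were Golm1 (Pearson r = 0.999), Rbfa (0.998) and Eno1b (0.998), which differed by -0.17, -0.85 and -1.33 on the log2 scale. For Ms4a4b they were Zkscan3 (0.997), Rsrp1 (0.995) and Klrd1 (0.994), which differed by 0.48, 0.85 and 1.77. Klrd1, the last of these and an NK cell receptor chain, was at 2.32 CPM in WT lungs against 7.91 in KO lungs. For Ms4a4c they were G3bp1, Tbck and Irgm2, an interferon-inducible GTPase (each 0.998), which differed by 0.16, 0.24 and 1.11. For Ms4a6b the closest was Arpc1b (0.996), for Ms4a6c Arl6ip5 (0.975), for Ms4a6d Tfb2m (0.996), for Ms4a7 Zfp799 (0.987), for Ms4a8a Pla2g4a (0.998) and for Ms4a4d Bex1 (0.975). The highest r was at least 0.975 for each of the 9 members.

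Among the other 10 Ms4a rows, 2 were tested. Ms4a1, which encodes CD20, had 85, 128 and 214 counts in WT and 563, 436 and 219 counts in KO, where the lowest KO library was just above the highest WT library. Its log2 difference was 1.55 ± 0.48 (SE), with an adjusted p of 0.304 in edgeR and 0.0443 in DESeq2. Ms4a14 was at 6.33 ± 5.08 CPM in WT lungs against 6.09 ± 4.27 in KO lungs (SD, n = 3). Ms4a15 had 10, 6 and 2 counts in the WT libraries and 0 in each KO library, and a count of 0 allows up to 3 counts in a library (counting error only). Ms4a2, the beta chain of the mast cell IgE receptor, had 5, 0 and 4 counts in WT and 13, 13 and 0 in KO. Ms4a3, a gene of granulocyte and monocyte precursors, had 4, 0 and 5 counts in WT and 0 in KO. Ms4a13 had 3 counts in 1 WT library, and Ms4a5, Ms4a10, Ms4a12 and Ms4a18 had 0 in all 6. The distant relatives Tmem176a and Tmem176b were at 348.6 ± 94.2 and 381.7 ± 114.9 CPM in WT and 447.4 ± 31.4 and 462.1 ± 24.3 CPM in KO (SD, n = 3), with edgeR adjusted p of 0.616 and 0.730.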

How the data were processed

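RNA was sequenced from lungs of 6 separate mice, 3 WT and 3 KO. Per gene, the authors deposited read counts as whole numbers without normalization. A second table deposited by the authors holds FPKM for the same genes. The submitters' processing notes name HISAT2 2.0.4, StringTie 1.3.4d and GRCm38 but not what each did. The sources used here do not give the strand setting, the annotation release or the handling of reads that match several genes. Names of the KO columns in the FPKM table end in characters without an explanation in the labels, and these columns were used as KO libraries without replicate numbers.

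Genotypes were compared with edgeR (4.0.16) in R (4.3.3), by filterByExpr, TMM scaling and its quasi-likelihood test with a robust prior, 2-sided, with Benjamini-Hochberg adjustment over 16633 genes and a threshold of 0.05. CPM values use the TMM factors. The SE is the absolute log2 difference over the square root of F. The p-values reflect only the spread among these 6 lungs. DESeq2 (1.42.0), limma-voom and limma on log2 FPKM (3.58.1), other scalings and filters, the replicate number as a block, and leaving out libraries were alternatives. The scripts were tested on simulated data. Coordinates are from GENCODE M21, and promoters were searched over the 250 bases before each RefSeq start. RefSeq windows matched 8 of the 9 members. Depth was 31052936 to 34451956 counts per library, so counting error matters mainly for the rare Ms4a rows.

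Named are all members, every other Ms4a row with Tmem176a and Tmem176b, Clec7a, the closest genes by Pearson r, the genes beside the cluster, and the most abundant or lowest-p genes of each list. Syk, Card9, Trem2, Ncr1 and Klre1 were named from the lists after their values were seen. The members and lists were chosen with earlier results of these data known.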

Additional observations from a re-analysis of the deposited data

How the results depend on the processing

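The count of genes called was 0 of 16633 with edgeR and 678 of 18630 with DESeq2. It was 2221 of 16633 with limma-voom with sample weights, the most of any setting, and 46 of 16744 without both replicate 1 libraries. Leaving out each library in turn gave 0 to 3 calls. Among the 8 members other than Ms4a4a, whose difference is untested because the group was chosen by it, DESeq2 called Ms4a4b and Ms4a4c, and limma-voom with sample weights called those and Ms4a6d (adjusted p = 0.0384). No other setting called any of the 8.

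Ms4a8a, at 0.05, was negative in 10 settings: -0.27 with limma-voom, -0.67 with sample weights, -0.17 on log2(FPKM + 1) with and without the filter, -0.20 on log2(FPKM + 0.1), -0.70 without both replicate 1 libraries, and down to -1.09 when a library was left out (-0.012 without WT replicate 2, -0.19 without WT replicate 3, -1.09 without KO replicate 1), while it was 0.43 without WT replicate 1. Ms4a14, at -0.06, was positive at 0.0791 with limma-voom, 0.0366 with sample weights, 0.0311 on log2(FPKM + 1) with and without the filter, 0.12 on log2(FPKM + 0.1), and 0.78, 0.23 and 0.19 without WT replicate 3, KO replicate 1 and KO replicate 3, over a range of -0.80 to 0.78 for single libraries left out. Ms4a7, at 0.42, was -0.0724 without KO replicate 1, -0.0902 without both replicate 1 libraries and up to 0.75 without KO replicate 3. Ms4a4d, at 0.12, was -0.0460 with sample weights. The cause was not tested. The other 6 members kept their sign in all 19 alternatives.

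With the replicate number as a block, edgeR called 0 genes, Ms4a8a was at -0.26 and Ms4a14 at 0.12. The labels do not say that the replicate numbers pair mice, so the numbers were not taken as a pairing. The deviations of samples with the same number correlated at 0.35, 0.35 and -0.10, which does not settle the question. With 3 libraries per genotype and a common biological coefficient of variation of 0.392, the precision is set by the spread between lungs more than by depth.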

Other observations

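The order of the members within a genotype depended on the length used. Scaled to all annotated exon bases, Ms4a7 (4453 exon bases) ranked 7 in WT, against 4 on the FPKM scale, and Ms4a4d ranked 4 against 7. Ms4a6d, Ms4a4a and Ms4a6c were the top 3 in WT on both scales. Ms4a4a, with 836 exon bases, was at 50.6 CPM per kb of exons in WT and 9.35 in KO, and Ms4a4b, with 8780 exon bases, at 0.316 and 1.22. In KO, Ms4a4a was thus ahead of Ms4a6b (6.48) and Ms4a7 (6.05), both of which were ahead of Ms4a4a by FPKM.

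The 3 nearest tested genes on each side of the Ms4a cluster were read as well. Prpf19, a splicing factor, was at 98.1 ± 5.75 CPM in WT lungs against 84.3 ± 3.64 in KO lungs (SD, n = 3), a log2 difference of -0.22 ± 0.15 (SE). Ccdc86 differed by -0.33 ± 0.15 and Ptgdr2, a prostaglandin D2 receptor, by 0.25 ± 0.89 on the same side. On the far side Mrpl16, a mitochondrial ribosomal protein, differed by -0.32 ± 0.29 and Stx3, a syntaxin, by -0.01 ± 0.20. Olfr1417, an olfactory receptor gene, was near the limit of detection at 0.148 ± 0.125 CPM in WT lungs against 0.411 ± 0.059 in KO lungs, a log2 difference of 1.43 ± 0.67 (SE) with groups that did not overlap. None of the 6 was called by edgeR at an adjusted p of 0.05.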
